A study of Mus musculus with 12 samples.

Results

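The transcriptional response of normal macrophages to lipopolysaccharide (LPS) was read from 6 total RNA libraries, 3 of unstimulated wild-type (WT UT) and 3 of LPS-treated wild-type (WT LPS) bone marrow-derived macrophages (BMDMs), out of 12 libraries in the study. The 6 libraries were chosen by their labels alone, and all 15523 genes that passed a count filter, of 48526 in the table, were compared. BMDMs are macrophages grown for 6 d from the marrow of the mouse femur and tibia in medium conditioned by L929 cells, a fibroblast line that secretes the macrophage growth factor CSF1. According to the methods, the mice were males of 7 to 10 weeks. The genotype of both groups is given as HSS9+/+ littermates, where HSS9 is an enhancer upstream of Tnf, although the methods describe C57BL/6 animals that were purchased. WT UT cells received the vehicle PBS and WT LPS cells received LPS, each for 6 hr, and the LPS dose for these cultures is not given in the sources used here. The other 6 libraries came from homozygous HSS9 knockout (KO) cells with the same treatments (KO UT and KO LPS) and took part in the scaling, the count filter and the estimate of spread, and are compared with WT at the end. The labels number the replicates and batches but do not say that they were separate animals, so the p-values measure the spread between these libraries, which may be technical.

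LPS is a component of the outer membrane of Gram-negative bacteria. On macrophages it is bound by CD14 and by the receptor TLR4 with its partner MD-2 (encoded by Ly96). The receptor signals through the adaptor MYD88 to the transcription factor NF-κB and to MAP kinases, and through the adaptor TRIF (encoded by Ticam1) to IRF3 and the type I interferon gene Ifnb1. Secreted interferon then acts back on the cells through the receptor IFNAR, JAK kinases and STAT factors. This cascade is known for the production of cytokines, chemokines, nitric oxide and prostaglandins, for a shift of metabolism toward glycolysis, and for negative feedback by inhibitors such as IκBα and SOCS proteins.

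Total counts were 33188393, 35030585 and 36423921 in WT UT and 32828482, 27346048 and 26154533 in WT LPS. Levels are given as CPM, the counts of a gene per 1000000 counts of its library after the scaling factors of the trimmed mean of M-values (TMM). These factors were near 0.81 in the WT LPS libraries and near 1.29 in the WT UT libraries. The WT LPS libraries differed more among themselves than the WT UT libraries did, with a chi-square per degree of freedom of 46.3 between WT LPS replicates 1 and 3 against at most 5.35 between WT UT libraries. Small structured RNAs held 4.04%, 5.36% and 6.88% of counts in WT LPS replicates 1, 2 and 3 and 3.00% to 3.25% in WT UT. These shares moved with treatment and between the WT LPS libraries. A fit without small structured and ribosomal RNA genes called 2911 genes higher and 2864 lower, against 2971 and 2899 with them. The macrophage label was checked on lineage genes. Adgre1, which encodes the surface protein F4/80, was at 2031 ± 38.5 CPM (SD, n = 3) in WT UT and 2574 ± 119.5 CPM in WT LPS, and Csf1r, the CSF1 receptor, at 2448 ± 20.97 and 1879.7 ± 80.4 CPM. Means are given ± SD of the 3 libraries of a group throughout. The markers of other cell types were low. The 4 neutrophil markers tested of 6 summed to 2.32 to 3.04 CPM in WT UT and 3.99 to 4.95 CPM in WT LPS, where Camp rose and Ltf and Ngp fell (Ngp was not called without WT LPS replicate 1 or 2), and the 5 stromal markers tested of 6 to at most 4.49 CPM in any WT library. Of 5 B cell markers only Cd79b was tested, at up to 1.15 CPM, and 3 of 4 dendritic cell markers summed to at most 1.89 CPM. No T cell, natural killer cell, erythroid or mast cell marker passed the filter, and the highest count of any of these in a library was 7. In bulk libraries, fewer cells with a transcript and less of it per cell cannot be told apart.

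A gene was called, and is said to have risen or fallen, when its Benjamini-Hochberg adjusted p in the edgeR quasi-likelihood test was below 0.05 and its fold change was above 2, which is 1 on the log2 scale. By this rule 5870 genes (37.8% of those tested) were called after 6 hr of LPS. Of them, 2971 rose (19.1%) and 2899 fell (18.7%), and the median log2 fold change over all genes tested was 0.05. These shares are the background for every gene list below. The lists were chosen with earlier results of these data known, so counts above or below these shares are a description and not a test. With the WT libraries fitted alone, 14863 genes passed the filter, of which 2727 rose and 2943 fell. More genes lay in the upper tail of the response. More than 10-fold changes were counted in 668 genes that rose and 342 that fell, and more than 100-fold changes in 146 and 20. With genes at 0 counts throughout 1 group set to the lower bound of their fold, the numbers were 646 and 308 above 10-fold and 98 and 6 above 100-fold. The 2 directions had unequal limits. A floor of 3 counts was 0.0667 CPM in WT UT and 0.129 CPM in WT LPS, so large falls were harder to register. Of 328 genes at up to 0.1 CPM in WT UT, 303 rose, and genes this low in WT UT passed the filter through other groups. The 3 WT LPS libraries lay wholly above or wholly below the 3 WT UT libraries in 74.8% of all genes tested and in 5790 of the 5870 called. Upper-quartile scaling moved the median log2 fold change by -0.183 and gave 2523 higher and 3467 lower calls, so directions of genes close to 0 depend on the scaling. Protein-coding genes that rose held 12.8% to 12.9% of counts in each WT UT library and 40.8% to 42.8% in each WT LPS library, whereas those that fell went from 12.3% to between 2.32% and 2.48%.

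**Figure D1:**
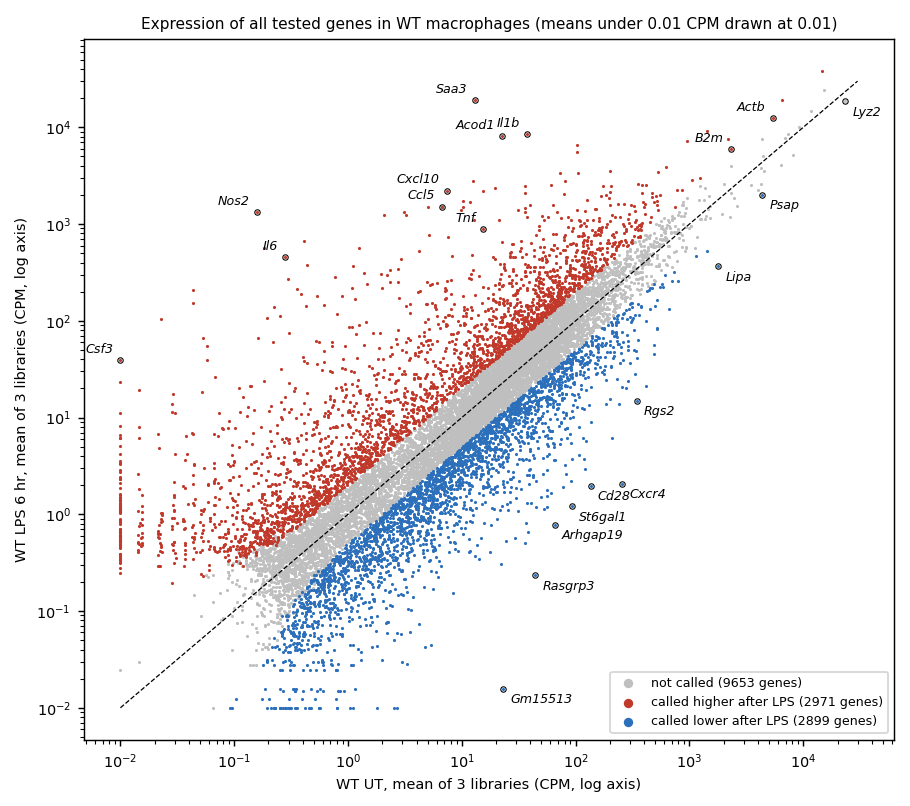
Mean level of each of the 15523 tested genes in WT UT (x axis, CPM, log scale) against WT LPS at 6 hr (y axis, CPM, log scale), each point the mean of 3 libraries, with the dashed line marking equal levels and means under 0.01 drawn at 0.01. The 2971 genes that rose (red) reach farther from the line than the 2899 that fell (blue); Nos2, Saa3 and Il6 lie far above it and Cxcr4, Rasgrp3 and Gm15513 far below.

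Among protein-coding genes with a mean of at least 10 CPM, the 10 with the largest fold increases were Nos2, U90926, Shisa3, Csf3, Lipg, Il1a, Il6, Saa3, Il19 and Cxcl9. Nos2 (ENSMUSG00000020826.7, chromosome 11, 78920787 to 78960254), the inducible nitric oxide synthase, had 0.257, 0.0883 and 0.128 CPM in WT UT and 1460.1, 1261 and 1280.1 CPM in WT LPS. Every WT LPS value lay far above every WT UT value (log2 fold change 13.03 with SE 0.145, adjusted p 7.10e-25 in edgeR), a rise of 8372 times in the fit. Lipg, which encodes endothelial lipase, had 0.211, 0.0662 and 0.276 CPM in WT UT and 582, 574 and 539 CPM in WT LPS (log2 fold change 11.55 with SE 0.153, adjusted p 7.80e-24 in edgeR). Il6, the gene of the fever-inducing cytokine interleukin 6 (ENSMUSG00000025746.11, chromosome 5, 30013114 to 30019981), had 0.0936, 0.154 and 0.595 CPM in WT UT and 438, 479 and 438 CPM in WT LPS. Again the groups did not overlap (log2 fold change 10.59 with SE 0.186, adjusted p 5.88e-22 in edgeR). Csf3, which encodes the neutrophil growth factor G-CSF, had 0, 0 and 1 counts in WT UT and 942, 890 and 909 counts in WT LPS (ratio of CPM 5266, exact 95% counting interval 944 to 208063). Shisa3 went from 2, 0 and 1 to 3077, 2405 and 1918 counts (ratio 4739, exact 95% counting interval 1621 to 22984), and it overlaps Atp8a1 on the opposite strand, so its reads are less certain. U90926 (ENSMUSG00000029409.7, chromosome 5, 92209893 to 92215408), annotated as protein coding, had 0, 0.0883 and 0.0425 CPM in WT UT and 169, 209 and 251 CPM in WT LPS. All WT LPS values lay above WT UT (log2 fold change 12.09 with SE 0.239, adjusted p 1.39e-19 in edgeR).

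The genes that added most transcripts were partly different ones. By the difference in CPM per kilobase of exon, a scale on which levels of genes of unlike length can be compared, the 10 largest increases among called protein-coding genes were in Saa3, Il1b, B2m, Acod1, Gm49342, Actb, Ccl4, Ccl9, Ccl3 and Wfdc17. Together these 10 took 1.15% to 1.18% of counts before and 5.27% to 5.77% after LPS. Saa3 (ENSMUSG00000040026.8, chromosome 7, 46711998 to 46715700), an acute-phase serum amyloid A gene, had 13.1, 12.1 and 13.99 CPM in WT UT and 15546, 18574 and 22896 CPM in WT LPS. The groups lay far apart (log2 fold change 10.50 with SE 0.1296, adjusted p 3.10e-24 in edgeR), and among the WT LPS libraries Saa3 was lowest where the small structured RNA share was lowest. Per kilobase, Saa3 went from 5.02 to 7293. Il1b, the gene of interleukin 1β, had 35.3, 36.7 and 39.5 CPM in WT UT and 8418, 8630.3 and 8294 CPM in WT LPS (log2 fold change 7.83 with SE 0.0687, adjusted p 6.58e-26 in edgeR). Acod1, whose product makes itaconate from an intermediate of the tricarboxylic acid cycle, had 21.7, 21.8 and 24.03 CPM in WT UT and 8495, 8054 and 7684 CPM in WT LPS (log2 fold change 8.49 with SE 0.0874, adjusted p 1.99e-25 in edgeR). These values place Il1b and Acod1 beside B2m, the MHC class I light chain, at 4429.8, 3079 and 6927 CPM per kilobase after LPS. Actb, the cytoplasmic actin often used as a reference gene, rose from 5378 ± 81.8 to 12539 ± 893 CPM (log2 fold change 1.22 with SE 0.0467, adjusted p 5.27e-16 in edgeR). Gm49342 shares exons with Pnp and Pnp2, and its values (204 ± 6.27 to 2464 ± 131 CPM) could include their reads.

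Promoters of the induced genes that the next sections turn on are printed so that the letters searched can be seen. They were read from RefSeq on the build GRCm38.p6, from 250 bases before to 50 bases after the annotated start, 5′ to 3′ on the strand of the gene. Capitals mark matches on either strand to GGANNTTCC, a short form of the NF-κB (kB) motif, to GAAANNGAA, a short form of the interferon-stimulated response element (ISRE), and to TTTCCCGC or TTTGGCGC, E2F motifs. The sequences are those of Tnf and of the gene list members with the largest changes that hold a match. All are of genes that rose. No promoter of the cell cycle list, whose members mostly fell, is among them. In that list 4 of 24 promoters (16.7%) held an E2F match, against 2.91% over tested protein-coding genes.
Tnf (chr17:35201958-35202257, minus strand): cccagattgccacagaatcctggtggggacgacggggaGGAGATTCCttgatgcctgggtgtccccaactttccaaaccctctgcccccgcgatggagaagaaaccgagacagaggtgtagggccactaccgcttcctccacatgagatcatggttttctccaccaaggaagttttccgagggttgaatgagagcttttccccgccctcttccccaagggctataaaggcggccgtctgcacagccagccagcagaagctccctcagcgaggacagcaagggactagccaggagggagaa
Il6 (chr5:30012864-30013163, plus strand): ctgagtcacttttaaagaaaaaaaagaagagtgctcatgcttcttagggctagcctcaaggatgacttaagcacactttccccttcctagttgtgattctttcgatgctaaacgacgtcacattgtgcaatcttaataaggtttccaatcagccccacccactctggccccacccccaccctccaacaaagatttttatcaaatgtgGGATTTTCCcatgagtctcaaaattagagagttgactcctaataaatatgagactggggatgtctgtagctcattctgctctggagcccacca
Cxcl3 (chr5:90785851-90786150, plus strand): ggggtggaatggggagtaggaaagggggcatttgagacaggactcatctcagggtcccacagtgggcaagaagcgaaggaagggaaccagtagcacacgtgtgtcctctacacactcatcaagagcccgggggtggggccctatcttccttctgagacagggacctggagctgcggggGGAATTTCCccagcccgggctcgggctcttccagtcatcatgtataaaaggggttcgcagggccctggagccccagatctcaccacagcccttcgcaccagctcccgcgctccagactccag
Il19 (chr1:130940066-130940365, minus strand): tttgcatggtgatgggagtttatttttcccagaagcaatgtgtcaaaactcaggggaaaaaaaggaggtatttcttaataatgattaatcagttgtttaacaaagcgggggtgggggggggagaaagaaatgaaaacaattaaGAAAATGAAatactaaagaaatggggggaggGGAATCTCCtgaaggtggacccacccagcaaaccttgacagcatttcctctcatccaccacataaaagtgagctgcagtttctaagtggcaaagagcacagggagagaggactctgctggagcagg
Cxcl9 (chr5:92328030-92328329, minus strand): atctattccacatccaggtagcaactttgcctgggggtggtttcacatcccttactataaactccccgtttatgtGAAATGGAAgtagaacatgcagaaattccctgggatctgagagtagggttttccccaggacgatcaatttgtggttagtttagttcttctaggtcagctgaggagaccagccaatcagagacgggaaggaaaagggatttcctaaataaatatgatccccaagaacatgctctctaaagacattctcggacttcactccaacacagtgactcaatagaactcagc
Gbp5 (chr3:142496684-142496983, plus strand): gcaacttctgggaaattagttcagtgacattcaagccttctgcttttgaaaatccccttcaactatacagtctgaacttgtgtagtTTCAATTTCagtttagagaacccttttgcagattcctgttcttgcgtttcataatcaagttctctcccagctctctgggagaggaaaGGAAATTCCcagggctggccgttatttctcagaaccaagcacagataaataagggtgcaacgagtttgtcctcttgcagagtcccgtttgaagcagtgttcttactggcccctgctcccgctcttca
Ifit2 (chr19:34550444-34550743, plus strand): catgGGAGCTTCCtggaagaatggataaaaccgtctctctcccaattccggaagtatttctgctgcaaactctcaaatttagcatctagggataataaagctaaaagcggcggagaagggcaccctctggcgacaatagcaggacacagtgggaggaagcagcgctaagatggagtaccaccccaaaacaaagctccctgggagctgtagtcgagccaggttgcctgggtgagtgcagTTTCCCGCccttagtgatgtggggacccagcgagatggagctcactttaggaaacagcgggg
Tap1 (chr17:34187306-34187605, plus strand): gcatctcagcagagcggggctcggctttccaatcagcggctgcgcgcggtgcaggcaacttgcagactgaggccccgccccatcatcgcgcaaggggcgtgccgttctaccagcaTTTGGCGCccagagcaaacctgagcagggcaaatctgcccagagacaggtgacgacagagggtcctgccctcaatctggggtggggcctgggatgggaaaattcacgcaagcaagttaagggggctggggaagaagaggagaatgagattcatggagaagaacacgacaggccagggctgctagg
The kB match began 212 bases upstream of the start in Tnf, 43 in Il6, 72 in Cxcl3, 76 in Il19 and 77 in Gbp5. Il19 and Gbp5 also held an ISRE match, which began 107 and 164 bases upstream, and Cxcl9 held an ISRE match alone, 175 bases upstream. Ifit2 held an E2F match 12 bases upstream beside a kB match, and Tap1 an E2F match 135 bases upstream in a window that it shares with Psmb9 on the other strand. Over all 32851 promoters in the table, 4.26% held a kB, 8.56% an ISRE and 1.56% an E2F match. Among protein-coding genes, the shares for those that rose, fell and were not called were 6.11%, 4.53% and 4.23% for kB, 11.8%, 5.57% and 6.87% for ISRE, and 1.71%, 3.598% and 3.00% for E2F. A promoter was found for 9785 of 12231 tested protein-coding genes, and for 78.5% and 79.2% of those that rose and fell. Because these are below 80%, the comparison of the classes is void and the shares are given as a description. A match is a run of letters, not a shown binding site.

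Tnf itself (ENSMUSG00000024401.14, chromosome 17, 35199381 to 35202007), the gene of the cytokine tumor necrosis factor α, had 14.8, 14.98 and 16.2 CPM in WT UT and 826, 905 and 938 CPM in WT LPS. All WT LPS values lay above all WT UT values (log2 fold change 5.86 with SE 0.0754, adjusted p 5.12e-24 in edgeR), a 58.1-fold rise. Of 27 cytokine genes listed, 25 were tested, 22 rose and 1 fell (median log2 fold change 5.86, or 5.52 with 1 at the bound set by 0 counts). By fold, Csf3, Il1a, Il6 and Il19 led the list. Il33, an alarmin, was at 0 in every WT UT library and had 66, 56 and 50 counts in WT LPS, at least 36.6-fold higher. Il1rn, whose product blocks the interleukin 1 receptor, went from 12.4 ± 0.563 to 2757 ± 157 CPM (log2 fold change 7.79 with SE 0.0732, adjusted p 6.58e-26 in edgeR). Of the subunits of interleukin 12 and its relatives, 4 rose. Il12b, the shared p40 subunit, went from 1.03 ± 0.206 to 87.3 ± 6.35 CPM, Il27 from 0.877 ± 0.162 to 182 ± 25.7 CPM and Ebi3, the partner of Il27, from 10.4 ± 0.797 to 57.4 ± 3.45 CPM. Il12a, the p35 subunit, had 0, 2 and 1 counts in WT UT and 135, 125 and 86 in WT LPS (ratio 222, exact 95% counting interval 75.2 to 1079.7). Il23a, the p19 subunit of interleukin 23, did not pass the filter and was not tested, with 0, 2 and 1 counts in WT UT and 6, 8 and 6 in WT LPS. Il10, an anti-inflammatory cytokine, had 4.91, 4.35 and 5.19 CPM in WT UT and 143, 161 and 144 CPM in WT LPS, with no overlap of the groups (log2 fold change 4.95 with SE 0.0816, adjusted p 2.44e-22 in edgeR). Ifnb1, the gene of interferon β, rose but remained below 3 CPM, with 2, 0 and 3 counts in WT UT and 44, 40 and 46 in WT LPS (log2 fold change 5.52 with SE 0.547, adjusted p 2.19e-08 in edgeR). The member that fell was Osm, which encodes oncostatin M, from 51.9 ± 0.665 to 11.1 ± 0.333 CPM (log2 fold change -2.22 with SE 0.0739, adjusted p 4.34e-17 in edgeR). Tgfb1, the gene of the suppressive cytokine TGF-β1, was at 83.3 ± 4.14 and 53.7 ± 4.44 CPM and missed the fold change minimum (log2 fold change -0.63 with SE 0.07195, adjusted p 7.44e-08 in edgeR), and no difference in Ltb, at no more than 18 counts in any WT library, was called.

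**Figure D2:**
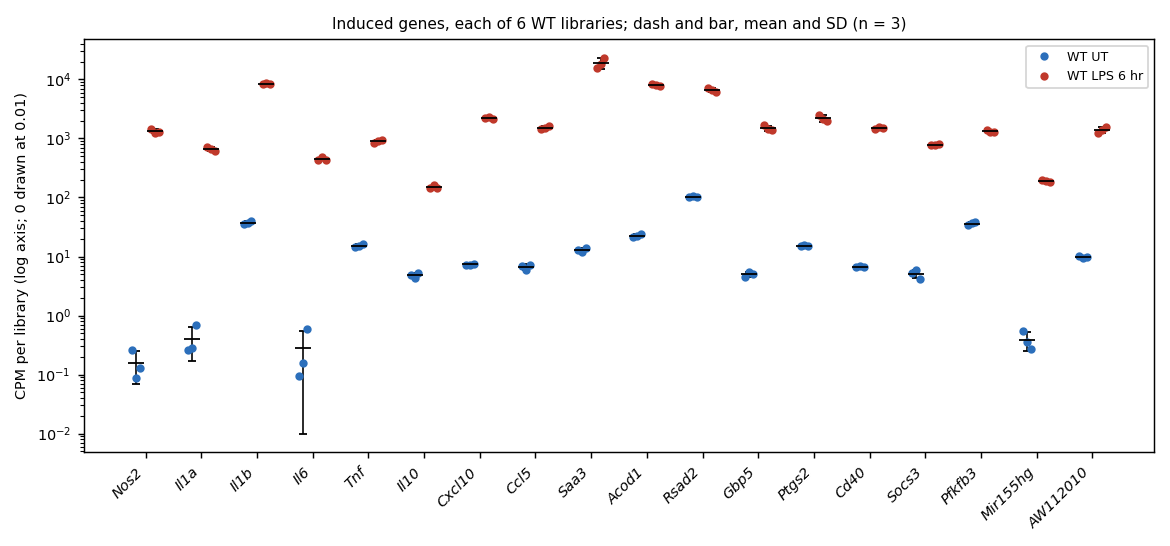
Level of 18 induced genes in each of the 3 WT UT (blue) and 3 WT LPS (red) libraries, on a log axis in CPM with 0 drawn at 0.01; dashes and bars are the mean and SD (n = 3), cut off at 0.01. In each of these genes every WT LPS library lies above every WT UT library, and Nos2 has the widest gap.

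Chemokines are the secreted attractants of leukocytes, and the CC chemokines had the highest median of the lists. Of 14 CC chemokine genes, 13 were tested, 11 rose and 0 fell (median log2 fold change 6.96, or 6.50 with 1 at the bound set by 0 counts). Ccl5, which attracts T cells and monocytes, had 6.85, 5.89 and 7.23 CPM in WT UT and 1438, 1501 and 1610.4 CPM in WT LPS (log2 fold change 7.83 with SE 0.112, adjusted p 2.61e-23 in edgeR). Ccl2, Ccl7 and Ccl12, monocyte attractants that neighbour each other on chromosome 11, rose with log2 fold changes of 6.96, 8.36 and 7.92, and Ccl3 and Ccl4, attractants of monocytes and T cells, with 7.18 and 7.41. Ccl17 was at 0 counts in all 3 WT UT libraries and at 41, 49 and 69 in WT LPS, at least 34.9-fold higher against a floor of 3 counts per library. Ccl9 was already abundant in unstimulated cells, at 946 ± 7.89 CPM, and reached 7177 ± 175 CPM (log2 fold change 2.92 with SE 0.0478, adjusted p 2.20e-22 in edgeR). Ccl6 lay at 103 ± 3.64 and 107 ± 2.11 CPM and Ccl25 at 10.2 ± 0.454 and 11.2 ± 1.25 CPM, and the groups overlapped in both. Of 13 CXC chemokine genes, 12 were tested, 9 rose and 0 fell (median log2 fold change 5.38). Without WT LPS replicate 1 or WT UT replicate 2, 1 fell, Cxcl12. The CXCR3 ligands Cxcl9, Cxcl10 and Cxcl11 were among the largest increases, and Cxcl10, the most abundant, had 7.298, 7.32 and 7.61 CPM in WT UT and 2205, 2333 and 2112 CPM in WT LPS (log2 fold change 8.22 with SE 0.0862, adjusted p 2.58e-25 in edgeR). The neutrophil attractants Cxcl1, Cxcl2 and Cxcl3 went from 1.46 ± 0.0943, 7.52 ± 1.44 and 0.252 ± 0.129 CPM to 239.7 ± 9.41, 739 ± 47.7 and 113 ± 11.8 CPM. Cxcl10 overlaps Art3 and Cxcl11 overlaps Gm2673 on the opposite strand, and whether reads were counted by strand is not given in the sources used here.

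Receptors for such attractants moved in both directions. Of 14 receptor genes, 12 were tested, 6 rose and 2 fell (median log2 fold change 0.94). Fpr1 and Fpr2, receptors for bacterial formyl peptides, rose from 1.08 ± 0.283 and 2.33 ± 0.569 CPM to 218 ± 8.27 and 336 ± 13.5 CPM, while Fpr2 shares exons with Fpr3. Ccr1, a receptor of several CC chemokines, rose with a log2 fold change of 2.75. Ccr2, the receptor of the monocyte attractant CCL2, had 187, 204 and 205 CPM in WT UT and 64.1, 56.5 and 49.96 CPM in WT LPS and so fell (log2 fold change -1.80 with SE 0.0794, adjusted p 6.89e-15 in edgeR). The largest decrease was in Cxcr4 (ENSMUSG00000045382.6, chromosome 1, 128588199 to 128592293), the receptor for the marrow chemokine CXCL12, with 268, 243 and 255 CPM in WT UT and 2.39, 2.07 and 1.74 CPM in WT LPS. This was a 122-fold fall (log2 fold change -6.93 with SE 0.0925, adjusted p 8.68e-24 in edgeR). Complement receptor genes C3ar1 and C5ar1 overlapped between the groups, with means of 1037 ± 7.38 and 960.0 ± 79.3 CPM for C3ar1.

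LPS sensing and signalling genes showed smaller folds. Of 18 genes of the TLR4 complex and its signalling, 17 were tested, 6 rose and 0 fell (median log2 fold change 0.51). Tlr4 had 187, 193 and 198 CPM in WT UT and 115, 101.01 and 98.7 CPM in WT LPS, with all WT LPS values lower but short of the fold change minimum (log2 fold change -0.87 with SE 0.06700, adjusted p 1.18e-10 in edgeR). Cd14, the coreceptor, rose from 532 ± 20.1 to 3420.4 ± 181 CPM (log2 fold change 2.68 with SE 0.0519, adjusted p 3.06e-21 in edgeR), Myd88 from 48.9 ± 3.22 to 253 ± 6.82 CPM, and Irak3, an inhibitory member of the IRAK family, from 27.7 ± 0.475 to 262 ± 16.7 CPM. Irak1 and Irak4, the activating kinases, had log2 fold changes of -0.88 and -0.42 and were not called. Of 9 other Toll-like receptors, 9 were tested, 4 rose and 2 fell (median log2 fold change 0.70). Tlr1, Tlr2 and Tlr6, which recognise bacterial lipopeptides as dimers, rose with log2 fold changes of 2.66, 2.45 and 1.78, and Tlr3, a sensor of double-stranded RNA, with 3.33. Tlr13, a mouse sensor of bacterial ribosomal RNA, had 482, 493 and 510.3 CPM in WT UT and 148, 141 and 133 CPM in WT LPS and fell (log2 fold change -1.81 with SE 0.0615, adjusted p 6.22e-17 in edgeR). Tlr5, the flagellin receptor, had 110, 145 and 149 counts in WT UT and 0, 2 and 0 in WT LPS (ratio of WT UT to WT LPS 105, exact 95% counting interval 28.9 to 871).

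Of 17 genes of NF-κB subunits and their feedback inhibitors, 17 were tested, 15 rose and 0 fell (median log2 fold change 2.76). The largest increase was in an inhibitor. Tnfaip3, which encodes the deubiquitinase A20, had 37.3, 33.6 and 37.3 CPM in WT UT and 1545, 1423 and 1428 CPM in WT LPS (log2 fold change 5.34 with SE 0.0696, adjusted p 6.06e-24 in edgeR), and Nfkbia, the gene of IκBα, went from 66.8 ± 2.47 to 780.4 ± 13.2 CPM (log2 fold change 3.55 with SE 0.06099, adjusted p 4.37e-22 in edgeR). Nfkbiz, a nuclear IκB needed for secondary genes such as Il6, rose with a log2 fold change of 3.95. Among the subunits, Nfkb2, Nfkb1, Relb and Rel rose with 2.98, 2.72, 2.095 and 1.10, the last not under upper-quartile scaling. Rela was at 43.9 ± 2.68 and 79.8 ± 3.47 CPM, short of the minimum (log2 fold change 0.86 with SE 0.0633, adjusted p 5.42e-11 in edgeR).

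Immediate-early genes, which respond to stimulation without new protein synthesis, moved in both directions at 6 hr. Of 18 listed, 18 were tested, 4 rose and 6 fell (median log2 fold change -0.26). Fosb had 25.99, 23.2 and 23.9 CPM in WT UT and 0.559, 0.269 and 0.754 CPM in WT LPS, a fall with no overlap (log2 fold change -5.52 with SE 0.1696, adjusted p 1.03e-17 in edgeR). Fos fell from 212 ± 5.47 to 53.7 ± 1.97 CPM and Nr4a2, an orphan nuclear receptor, from 42.2 ± 0.725 to 2.44 ± 0.603 CPM. Egr1 lay at 2.71 ± 0.281 and 2.17 ± 0.245 CPM with overlapping groups. Junb and Atf3 were high in both groups, with log2 fold changes of 0.40 and 0.81 that were not called, and Ier3 rose (log2 fold change 3.16 with SE 0.0774, adjusted p 1.83e-19 in edgeR). Of 19 other transcription factors, 19 were tested, 10 rose and 4 fell (median log2 fold change 1.57). Batf and Batf2, basic leucine zipper factors, rose with log2 fold changes of 5.11 and 4.40, and Hif1a, the factor of the hypoxia response, from 94.9 ± 4.93 to 911 ± 108 CPM. The Krüppel-like factors split, with Klf6 at 225 ± 8.17 and 824 ± 71.3 CPM, Klf2 at 33.4 ± 0.865 and 7.29 ± 0.692 CPM and Klf4 at 39.9 ± 2.96 and 4.78 ± 1.13 CPM. Klf6 thus rose and Klf2 and Klf4 fell.

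Of 15 genes of mRNA decay factors and MAP kinase phosphatases, 15 were tested, 5 rose and 4 fell (median log2 fold change 0.17). Dusp2 and Dusp16 rose with log2 fold changes of 5.49 and 4.60, and Dusp5 fell with -1.60. Zfp36, the gene of tristetraprolin, which degrades cytokine mRNAs, was at 181 ± 4.85 and 329 ± 16.8 CPM and not called (log2 fold change 0.86 with SE 0.0621, adjusted p 3.79e-11 in edgeR). Its relative Zfp36l2 had 256, 258 and 255 CPM in WT UT and 23.1, 19.4 and 19.2 CPM in WT LPS, a 12.4-fold fall (log2 fold change -3.63 with SE 0.0811, adjusted p 3.82e-20 in edgeR), and Zfp36l1 fell with a log2 fold change of -2.16. Zc3h12a, which encodes the cytokine mRNA nuclease Regnase-1, rose from 33.3 ± 2.13 to 125 ± 9.57 CPM.

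Interferon-stimulated genes were the list with the most uniform rise, 35 of 36. Of the 36, 36 were tested, 35 rose and 0 fell (median log2 fold change 3.08). Rsad2, the antiviral enzyme viperin, had 100.82, 105 and 103 CPM in WT UT and 7101, 6519 and 6246 CPM in WT LPS (log2 fold change 6.01 with SE 0.0599, adjusted p 1.34e-25 in edgeR). Mx1, Isg15 and Ifit1, also of this list, rose from 73.5 ± 0.626, 37.6 ± 1.26 and 63.6 ± 1.55 CPM to 3369 ± 54.9, 1183 ± 62.4 and 1569.7 ± 171 CPM. The sensors Ifih1 (MDA5) and Ddx58 (RIG-I) rose with log2 fold changes of 3.61 and 2.64, and the transcription factors Stat2 and Irf7 with 2.43 and 2.49. Irf9, the partner of STAT2, did not reach the minimum (log2 fold change 0.75 with SE 0.05698, adjusted p 1.00e-10 in edgeR). Of 17 guanylate-binding proteins and immunity-related GTPases, which attack pathogen vacuoles, 16 were tested, 15 rose and 0 fell (median log2 fold change 5.23). Gbp5 had 4.51, 5.45 and 5.02 CPM in WT UT and 1673, 1464 and 1377 CPM in WT LPS (log2 fold change 8.23 with SE 0.0952, adjusted p 1.03e-24 in edgeR), and Gbp2 rose from 35.7 ± 1.01 to 2492 ± 200.4 CPM. Gbp8 was at 4.49 ± 0.507 and 3.599 ± 0.546 CPM, with overlapping groups and exons shared with Gbp4 and Gbp9. Several of these genes have near-identical copies, so reads could have been divided among them in the counting. Of 13 interferon receptors, JAK kinases and SOCS genes, 13 were tested, 7 rose and 1 fell (median log2 fold change 1.51). Socs3 and Socs1, inhibitors of JAK kinases, showed the largest rises, and Socs3 had 5.29, 5.93 and 4.19 CPM in WT UT and 778, 762 and 794 CPM in WT LPS (log2 fold change 7.24 with SE 0.0925, adjusted p 4.62e-24 in edgeR). Jak2 rose from 51.02 ± 2.93 to 1199 ± 121 CPM and both chains of the type I receptor, Ifnar1 and Ifnar2, with log2 fold changes of 1.88 and 1.88, whereas Ifngr1, a chain of the interferon γ receptor, fell (log2 fold change -1.13 with SE 0.0528, adjusted p 1.92e-14 in edgeR).

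Of 9 genes of nitric oxide, arginine and itaconate metabolism, 9 were tested, 7 rose and 0 fell (median log2 fold change 4.55). Beside Nos2, the arginine transporter gene Slc7a2 had 3.23, 2.91 and 3.17 CPM in WT UT and 1412, 1336 and 1292 CPM in WT LPS (log2 fold change 8.76 with SE 0.0883, adjusted p 1.43e-25 in edgeR). Ass1, which regenerates arginine, and Gch1, which makes the cofactor of nitric oxide synthase, rose with log2 fold changes of 4.55 and 3.79. Of 12 prostaglandin and leukotriene genes, 12 were tested, 3 rose and 5 fell (median log2 fold change -0.58). Members of the prostaglandin branch moved in both directions. Pla2g4a, which frees arachidonic acid, Ptgs2, the inducible cyclooxygenase, and Ptges, the inducible prostaglandin E synthase, rose from 12.02 ± 0.834, 15.2 ± 0.214 and 3.22 ± 0.335 CPM to 306 ± 17.98, 2179.9 ± 289 and 1251 ± 18.4 CPM. Ptgs1, the constitutive cyclooxygenase, Hpgds, which makes prostaglandin D2, and the leukotriene genes Alox5, Lta4h and Ltc4s fell, with log2 fold changes of -2.23, -1.76, -2.63, -1.25 and -2.33. The other 4, Alox5ap, Tbxas1, Ptges2 and Ptges3, had log2 fold changes of -0.78, -0.38, 0.90 and 0.86 and were not called.

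Glycolysis genes were mostly higher, and no gene of the tricarboxylic acid cycle rose. Of 18 glycolytic genes and transporters, 18 were tested, 14 rose and 0 fell (median log2 fold change 1.59). Pfkfb3, which makes the activator of phosphofructokinase, had 33.99, 36.4 and 38.1 CPM in WT UT and 1376, 1283 and 1311 CPM in WT LPS (log2 fold change 5.19 with SE 0.0685, adjusted p 7.56e-24 in edgeR). The glucose transporters Slc2a1 and Slc2a6 rose with log2 fold changes of 3.50 and 3.37 and the lactate exporter Slc16a3 with 2.32. Ldha, the lactate dehydrogenase subunit, was just above the minimum (log2 fold change 1.03 with SE 0.0566, adjusted p 3.35e-13 in edgeR) and was not called by DESeq2, under RLE or upper-quartile scaling, without the filter on low counts, with WT libraries only or without WT LPS replicate 1. Gapdh, which has many pseudogene copies and was counted at only 38.5 ± 1.66 CPM in WT UT, is uncertain. Of 19 genes listed for the cycle, 19 were tested, 0 rose and 3 fell (median log2 fold change -0.24). The 3 that fell were Idh1, Idh2 and Suclg2. Idh1 encodes the cytosolic isocitrate dehydrogenase and so is not a step of the mitochondrial cycle. It had the largest fall of the list, with 275, 292 and 292 CPM in WT UT and 51.8, 51.99 and 46.4 CPM in WT LPS (log2 fold change -2.51 with SE 0.0624, adjusted p 2.36e-19 in edgeR). Of 13 antioxidant genes, 13 were tested, 5 rose and 1 fell (median log2 fold change 0.97). Sod2, the mitochondrial superoxide dismutase, rose from 80.03 ± 2.27 to 2765 ± 127 CPM and Slc7a11, the cystine importer, from 12.7 ± 0.227 to 1112 ± 79.2 CPM, and Cat, the catalase, fell from 377 ± 9.15 to 139 ± 12.5 CPM. Of 10 iron genes, 9 were tested, 2 rose and 2 fell (median log2 fold change 0.22). Lcn2, which captures bacterial siderophores, had 0.515, 0.574 and 0.5104 CPM in WT UT and 170.3, 178 and 195 CPM in WT LPS (log2 fold change 8.40 with SE 0.136, adjusted p 1.96e-22 in edgeR), and Slc40a1, the iron exporter ferroportin, fell from 57.6 ± 1.901 to 6.09 ± 1.604 CPM (log2 fold change -3.22 with SE 0.122, adjusted p 4.56e-16 in edgeR).

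Antigen presentation genes of both MHC classes were listed. Of 18 class I genes, 18 were tested, 14 rose and 0 fell (median log2 fold change 2.18). The immunoproteasome subunits Psmb8, Psmb9 and Psmb10 rose with log2 fold changes of 2.36, 2.39 and 3.04, the peptide transporter genes Tap1 and Tap2 with 3.19 and 2.69, and Nlrc5, the class I transactivator, with 3.13. Of 11 class II genes, 11 were tested, 2 rose and 1 fell (median log2 fold change 0.17). H2-Ab1 rose from 208 ± 5.95 to 592 ± 42.9 CPM. H2-Oa also rose, but was not called without WT LPS replicate 2, without WT UT replicate 1 or without WT UT replicate 3, and H2-Aa and H2-Eb1 had log2 fold changes of 0.36 and 0.39 that were not called. Ciita, the class II transactivator, had 25.2, 25.2 and 26.9 CPM in WT UT and 7.34, 8.17 and 6.03 CPM in WT LPS and fell (log2 fold change -1.84 with SE 0.101, adjusted p 3.83e-13 in edgeR). Of 15 costimulation and adhesion genes, 15 were tested, 12 rose and 0 fell (median log2 fold change 2.55). Cd40 had 6.57, 6.97 and 6.699 CPM in WT UT and 1448, 1581 and 1492 CPM in WT LPS (log2 fold change 7.80 with SE 0.0734, adjusted p 6.58e-26 in edgeR), and Cd274, which encodes PD-L1, rose from 69.1 ± 2.48 to 1318 ± 58.9 CPM. Cd86 rose with a log2 fold change of 3.33, and Cd80, its fellow CD28 ligand, overlapped between the groups at 6.94 ± 0.3503 and 7.199 ± 0.394 CPM.

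Of 13 inflammasome genes, 13 were tested, 8 rose and 1 fell (median log2 fold change 1.90). Nlrp3, Casp1 and Casp4 rose with log2 fold changes of 3.10, 2.79 and 3.75, as did the pore-forming Gsdmd with 1.90. Nlrp1b, another sensor, had 132, 130.1 and 134 CPM in WT UT and 13.04, 13.1 and 14.05 CPM in WT LPS, and so fell (log2 fold change -3.31 with SE 0.0673, adjusted p 7.60e-21 in edgeR). Of 14 complement genes, 13 were tested, 6 rose and 1 fell (median log2 fold change 0.86). C3 rose from 119 ± 1.42 to 1015 ± 69.9 CPM and Cfb, factor B of the alternative pathway, from 0.0896 ± 0.101 to 9.302 ± 2.46 CPM. The C1q chains C1qa, C1qb and C1qc had log2 fold changes of -0.35, -0.67 and -0.45 and were not called.

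Surface receptors for uptake moved in both directions. Of 20 scavenger, lectin and efferocytosis genes, 19 were tested, 9 rose and 4 fell (median log2 fold change 0.56). Clec4e, which encodes the mycobacterial glycolipid receptor Mincle, had 96.98, 108 and 106 CPM in WT UT and 5830.4, 5609 and 5269 CPM in WT LPS (log2 fold change 5.75 with SE 0.0631, adjusted p 5.58e-25 in edgeR). Marco and Msr1, scavenger receptors, rose with log2 fold changes of 6.07 and 3.45. Axl, with 1.01, lay at the fold change minimum. It was not called by DESeq2, under RLE or upper-quartile scaling or without the filter on low counts. Nor was Axl called with WT libraries only, or without WT LPS replicate 1 or WT UT replicate 1. Mertk, a receptor for apoptotic cells, had 73.6, 67.05 and 73.03 CPM in WT UT and 14.4, 13.6 and 13.8 CPM in WT LPS and fell (log2 fold change -2.35 with SE 0.06503, adjusted p 1.59e-18 in edgeR). Its ligand Gas6 fell as well, from 181 ± 4.21 to 42.03 ± 1.13 CPM, as did the β-glucan receptor Clec7a and the mannose receptor Mrc1, with log2 fold changes of -1.54 and -1.39. Of 7 Fc receptor genes, 7 were tested, 4 rose and 2 fell (median log2 fold change 1.39). Fcgrt, the neonatal Fc receptor, with -1.04, was 1 of the 2 that fell and was not called without WT LPS replicate 1 or in a fit of protein-coding genes only. Fcgr2b, the inhibitory receptor for IgG, had the largest rise, from 39.9 ± 2.12 to 1558 ± 58.6 CPM (log2 fold change 5.29 with SE 0.0612, adjusted p 1.03e-24 in edgeR), and Fcgr1 and Fcgr4 rose with 2.61 and 3.10.

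Among protein-coding genes with a mean of at least 10 CPM, the 10 with the largest fold decreases were Rasgrp3, Cxcr4, Arhgap19, St6gal1, Lpin1, Fam214a, Cd28, Tmem154, E2f2 and Slc46a3. Rasgrp3, a nucleotide exchange factor for Ras (ENSMUSG00000071042.11, chromosome 17, 75435896 to 75529054), had 41.1, 46.3 and 44.9 CPM in WT UT and 0.522, 0.1796 and 0 CPM in WT LPS. The groups did not overlap, 1 WT LPS library held 0 counts, and the fall in the fit was 170.0-fold (log2 fold change -7.41 with SE 0.2803, adjusted p 4.33e-16 in edgeR). St6gal1, a sialyltransferase, had 93.99, 94.4 and 90.1 CPM in WT UT and 1.603, 1.21 and 0.801 CPM in WT LPS (log2 fold change -6.23 with SE 0.113, adjusted p 1.01e-21 in edgeR). Arhgap19, a GTPase-activating protein, went from 65.4 ± 1.42 to 0.776 ± 0.0759 CPM, Lpin1, a phosphatidate phosphatase, from 22.00 ± 1.396 to 0.308 ± 0.205 CPM, and Slc46a3, a lysosomal transporter, from 55.7 ± 1.697 to 1.18 ± 0.251 CPM. Cd28, best known as a T cell costimulatory receptor, had 138, 136 and 133 CPM in WT UT and 2.09, 2.29 and 1.51 CPM in WT LPS (log2 fold change -6.10 with SE 0.105, adjusted p 4.37e-22 in edgeR). Since the T cell markers Cd3d, Cd3e and Cd3g did not pass the filter, the Cd28 level in WT UT stood without them. E2f2, a cell cycle transcription factor, had 29.6, 30.01 and 28.4 CPM in WT UT and 0.783, 0.449 and 0.471 CPM in WT LPS (log2 fold change -5.65 with SE 0.164, adjusted p 3.65e-18 in edgeR).

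**Figure D3:**
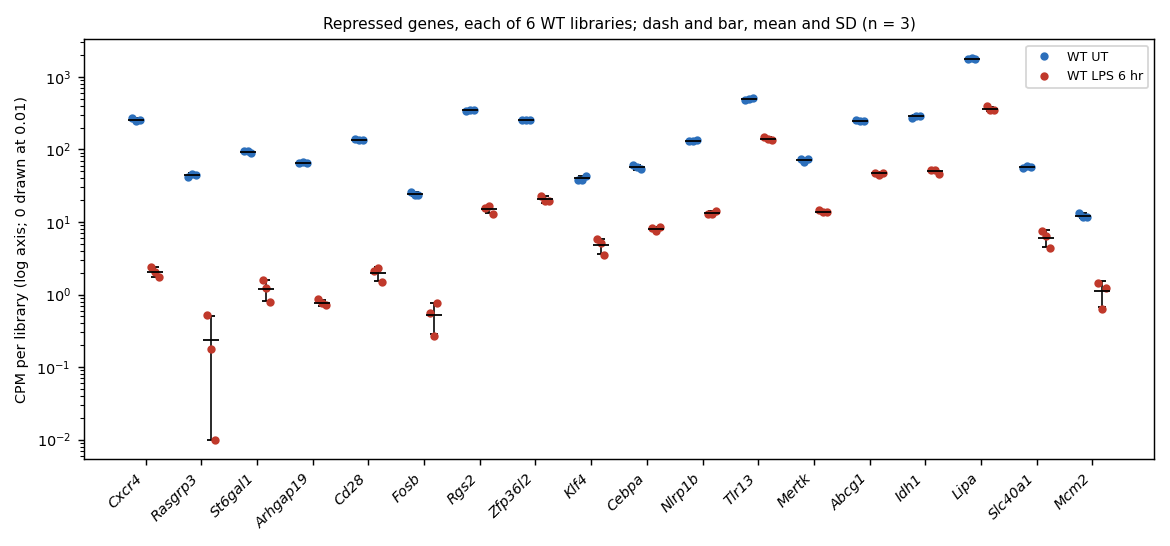
Level of 18 repressed genes in each of the 3 WT UT (blue) and 3 WT LPS (red) libraries, on a log axis in CPM with 0 drawn at 0.01; dashes and bars are the mean and SD (n = 3), cut off at 0.01. In each gene every WT LPS library lies below every WT UT library, and the spread is widest for Rasgrp3 after LPS, where 1 library is at 0.

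By difference in CPM per kilobase, the 10 largest decreases among called protein-coding genes were in Psap, Selenop, Gpx1, Lipa, Cxcr4, Myo1f, Rnh1, Pmp22, Cd300lb and Cat. Genes that fell by less than the fold change minimum are outside this ranking, whatever their loss in CPM, and Rnh1 was not called in a fit of protein-coding genes only. Most of the 10 were abundant genes with moderate folds. Psap, which encodes the saposins of lysosomal lipid breakdown, had 4428, 4235 and 4349 CPM in WT UT and 2024, 2012 and 2005 CPM in WT LPS, a 2.15-fold fall (log2 fold change -1.11 with SE 0.0453, adjusted p 1.81e-15 in edgeR). Lipa, the lysosomal acid lipase, had 1775, 1792 and 1777 CPM in WT UT and 392.43, 354 and 353 CPM in WT LPS (log2 fold change -2.28 with SE 0.0521, adjusted p 5.50e-20 in edgeR). Selenop and Gpx1, both selenoproteins, fell from 1426 ± 38.5 and 737 ± 21.4 CPM to 527 ± 41.4 and 323 ± 35.1 CPM. Of 20 lysosome genes, 20 were tested, 0 rose and 5 fell (median log2 fold change -0.62). The called ones besides Lipa were Atp6v0d2, Npc1, Tfeb and Gaa, with log2 fold changes of -2.32, -1.44, -1.39 and -1.12, where TFEB is a transcription factor of lysosomal genes and NPC1 exports cholesterol from lysosomes. Npc2, the partner of NPC1, was at 876 ± 12.3 and 1678 ± 69.5 CPM, higher in every WT LPS library but not called.

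Lipid genes changed member by member. Of 12 LXR targets and cholesterol efflux genes, 12 were tested, 2 rose and 4 fell (median log2 fold change -0.44). The efflux pumps parted, with Abca1 at 279 ± 8.34 and 838 ± 26.3 CPM (log2 fold change 1.59 with SE 0.04995, adjusted p 1.58e-17 in edgeR) and Abcg1 at 249.5 ± 4.32 and 46.8 ± 1.55 CPM (log2 fold change -2.42 with SE 0.0553, adjusted p 5.79e-20 in edgeR). Mylip and Scd2 fell with -1.90 and -2.71. Of 18 genes of cholesterol synthesis, 18 were tested, 3 rose and 1 fell (median log2 fold change 0.37). Cyp51 and Mvd, enzymes of the pathway, lay at the fold change minimum (1.02 and -0.997). By DESeq2, under RLE or upper-quartile scaling, without the filter on low counts and with WT libraries only, Cyp51 was not called and Mvd was called lower. Cyp51 was also not called without WT LPS replicate 1 or WT UT replicate 1, and Mvd was also called lower without WT LPS replicate 2, WT UT replicate 1 or 3, or KO UT replicate 2 or 3. Ch25h, which is not a synthesis enzyme but makes 25-hydroxycholesterol, had 0.491, 0.463 and 0.106 CPM in WT UT and 203, 227 and 209 CPM in WT LPS (log2 fold change 9.24 with SE 0.159, adjusted p 4.37e-22 in edgeR). Dhcr7, the last enzyme of the pathway, fell from 9.23 ± 0.6001 to 0.953 ± 0.322 CPM (log2 fold change -3.29 with SE 0.195, adjusted p 1.41e-12 in edgeR).

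Cell cycle genes were the list with the most members lower. Of 27 genes of the cell cycle and DNA replication, 27 were tested, 1 rose and 19 fell (median log2 fold change -1.65). Rrm2, a ribonucleotide reductase subunit, had 9.45, 10.97 and 11.4 CPM in WT UT and 0.857, 0.584 and 0.707 CPM in WT LPS (log2 fold change -3.86 with SE 0.204, adjusted p 1.67e-13 in edgeR). The replicative helicase genes Mcm2, Mcm3, Mcm4, Mcm5 and Mcm7 fell with log2 fold changes of -3.45, -2.17, -1.48, -1.30 and -2.16, and Ccna2, Cdk1 and Top2a with -2.66, -1.23 and -1.87. Mcm6, the other subunit of the helicase, had a log2 fold change of -0.71 and was not called. Cdkn1a, the inhibitor p21, was the member that rose, from 58.4 ± 1.57 to 147 ± 13.02 CPM (log2 fold change 1.33 with SE 0.0652, adjusted p 4.54e-14 in edgeR). Not every proliferation marker was lower. Mki67, the gene of the Ki-67 antigen, had 34.7, 37.7 and 37.7 CPM in WT UT and 72.6, 69.3 and 64.1 CPM in WT LPS, all WT LPS values higher but not past the minimum (log2 fold change 0.90 with SE 0.0701, adjusted p 1.42e-10 in edgeR), and Pcna overlapped between the groups at 203 ± 6.91 and 201 ± 8.55 CPM.

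Of 13 macrophage lineage genes listed, 13 were tested, 4 rose and 2 fell (median log2 fold change -0.34). Cebpa, a factor of myeloid differentiation, had 61.3, 56.4 and 52.95 CPM in WT UT and 8.16, 7.54 and 8.44 CPM in WT LPS and fell (log2 fold change -2.82 with SE 0.0854, adjusted p 8.09e-18 in edgeR). Spi1, the gene of PU.1, rose from 122 ± 2.53 to 302 ± 3.83 CPM, and Maf, with a log2 fold change of 1.02, was at the edge of the threshold. Maf was not called by DESeq2, under RLE or upper-quartile scaling, without the filter on low counts, with WT libraries only, without WT LPS replicate 1 or without WT UT replicate 1. Lyz2, the most abundant of these at 23453 ± 475 CPM in WT UT, had a log2 fold change of -0.34 and was not called.

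Regulators of G-protein signalling and of the circadian clock were more often lower than higher. Of 8 Rgs genes, 8 were tested, 2 rose and 4 fell (median log2 fold change -0.93). Rgs16, with 1.496, was 1 of the 2 that rose and was not called without WT LPS replicate 1. Rgs2 had 339, 346 and 348 CPM in WT UT and 15.4, 16.6 and 12.9 CPM in WT LPS, a 22.9-fold fall (log2 fold change -4.52 with SE 0.0878, adjusted p 3.25e-21 in edgeR). Rgs1 and Rgs18 fell with -1.89 and -2.16, and Rgs14 rose with 1.57. Of 14 clock genes, 14 were tested, 2 rose and 6 fell (median log2 fold change -0.75). Dbp and Tef, output factors of the clock, fell with log2 fold changes of -3.57 and -1.88, and Per3 and Nr1d2 with -2.28 and -1.35. The core genes Arntl and Clock were not called (-0.05 and -0.14), and Cry2 rose (log2 fold change 1.25 with SE 0.0967, adjusted p 1.31e-10 in edgeR).

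Of 11 purine receptor and ectonucleotidase genes, 11 were tested, 5 rose and 3 fell (median log2 fold change 0.37). Without WT LPS replicate 3, 2 fell, since Nt5e, which makes adenosine, was not called. The adenosine receptor genes Adora2a and Adora2b rose from 0.555 ± 0.0553 and 7.16 ± 1.77 CPM to 60.6 ± 3.43 and 203 ± 8.11 CPM. P2rx7, the ATP-gated channel that triggers the inflammasome, and Entpd1, which degrades ATP, fell with log2 fold changes of -1.88 and -2.43. Of 13 genes tested of the BCL2 family of apoptosis regulators, 5 rose and 2 fell (median log2 fold change 0.65), and 3 fell without WT LPS replicate 2. The survival genes Bcl2a1a, Bcl2a1b and Bcl2a1d rose with log2 fold changes of 7.87, 6.30 and 6.96, and as near-identical copies they can share reads. The death gene Bak1 rose (1.15), but not under upper-quartile scaling, and the survival gene Bcl2l1 (1.003) lay at the fold change minimum and was not called in 12 of the alternatives, DESeq2 and the WT libraries alone among them. The survival gene Bcl2 fell from 3.68 ± 1.09 to 1.07 ± 0.284 CPM and Bcl2l11, which encodes the death factor BIM, from 176 ± 6.65 to 65.9 ± 9.48 CPM. Of 14 matrix protease genes, 14 were tested, 6 rose and 1 fell (median log2 fold change 0.83). Mmp13 and Mmp14 rose from 11.7 ± 0.283 and 2.91 ± 0.271 CPM to 1689.8 ± 209 and 436 ± 28.9 CPM and the inhibitor gene Timp1 from 1.16 ± 0.0338 to 167 ± 30.8 CPM, and Timp2 fell (log2 fold change -1.45 with SE 0.0533, adjusted p 2.61e-16 in edgeR). Of 12 stress genes, 12 were tested, 4 rose and 0 fell (median log2 fold change 0.45), among them Hspa5, the chaperone BiP, with 1.20, and Asns, the asparagine synthetase, with 2.07.

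Among 366 lincRNA genes tested, 87 rose and 81 fell, and among 386 antisense genes 94 rose and 81 fell. Over lncRNAs of all annotated types, sense intronic and processed transcripts included, the 5 with the largest increases at a mean of at least 5 CPM were Gm16685, Mir155hg, AW112010, Ptgs2os2 and Gm14005. Mir155hg (ENSMUSG00000097418.7, chromosome 16, 84703167 to 84715245), the host transcript of the inflammatory microRNA miR-155, had 0.538, 0.353 and 0.276 CPM in WT UT and 195, 190.1 and 185 CPM in WT LPS (log2 fold change 8.93 with SE 0.123, adjusted p 1.42e-23 in edgeR). AW112010, the most abundant, had 10.2, 9.29 and 9.97 CPM in WT UT and 1253, 1409 and 1553 CPM in WT LPS (log2 fold change 7.16 with SE 0.0834, adjusted p 1.10e-24 in edgeR). Gm16685 overlaps Il7 on the opposite strand, and had 0, 3 and 1 counts in WT UT and 495, 377 and 375 in WT LPS. The largest decreases were in Gm15513, Gm28875, Peg13, AU020206 and 2410006H16Rik. Gm15513 (ENSMUSG00000086291.1, chromosome 5, 34211810 to 34213802), annotated like Peg13 as sense intronic, a type that lies in an intron of a gene on the same strand, had 977, 1044 and 1082 counts in WT UT and 0, 0 and 1 in WT LPS (ratio of WT UT to WT LPS 1615, exact 95% counting interval 289.7 to 63817). Of 11 long noncoding and microRNA host genes listed, 11 were tested, 5 rose and 0 fell (median log2 fold change 0.32). Among the 5 is U90926, which the annotation gives as protein coding. Without it, 4 of 10 rose and the median was 0.28. The nuclear RNAs Malat1 and Neat1 had log2 fold changes of 0.32 and -0.13 and were not called.

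The 2 directions were unevenly spread over gene types. Of 12231 protein-coding genes, 2015 (16.5%) rose and 2506 (20.5%) fell. In contrast, 44 of 117 snoRNA genes rose and 2 fell, 41 of 118 microRNA genes rose and 6 fell, and 26 of 57 snRNA genes rose and 3 fell. More rose than fell also among 762 unconfirmed transcripts (288 and 70), 767 processed pseudogenes (172 and 43) and 117 sense-intronic transcripts (45 and 8). The small structured RNA share of the libraries, given above, was higher in every WT LPS library than in any WT UT library. It went the other way in KO cells, at 6.62% to 7.83% in KO UT and 3.23% to 3.39% in KO LPS. Whether the rises of these small RNA genes followed the treatment or the make-up of the libraries was not tested. Of 88 cytosolic ribosomal protein genes, 84 were tested, 2 rose and 0 fell (median log2 fold change 0.25), and those that rose, Rpl24 and Rpl39l, have close copies elsewhere.

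Called genes also lay next to each other. Runs of at least 5 neighbouring tested protein-coding genes called in the same direction numbered 32 upward, with 183 genes, and 9 downward, with 49 genes. With 16.5% of tested protein-coding genes rising and 20.5% falling, some runs can arise by random placement. How many would do so was not computed, so the counts and single runs are a description. The longest was on chromosome 11 from 48861968 to 49135387, where 10 neighbours from Irgm1 to Ifi47 rose, with log2 fold changes of 1.06 to 6.17. All 7 tested neighbours from Slfn5 to Slfn3 on the same chromosome (82951349 to 83215154), which belong to the Schlafen family of interferon-induced proteins, rose. Among them Slfn4 went from 19.6 ± 0.2199 to 2349 ± 77.3 CPM (log2 fold change 6.90 with SE 0.0639, adjusted p 6.58e-26 in edgeR). On chromosome 1, 6 neighbours from Aim2 to Ifi208 rose, and nearby Ifi205 went from 2.06 ± 0.408 to 1227 ± 87.1 CPM (log2 fold change 9.21 with SE 0.135, adjusted p 3.69e-23 in edgeR). On chromosome 19, 7 neighbours from Ms4a4a to Ms4a6d rose (11375523 to 11604849), with Ms4a4c at 79.5 ± 1.44 and 2045 ± 53.4 CPM. The downward runs included 7 genes on chromosome 11 from Ttyh2 to Cd300ld (114675431 to 114989922), where Cd300a fell from 343 ± 1.95 to 41.5 ± 1.85 CPM, and runs of 6 and 5 genes on chromosome 13, all histone genes but Hfe. The families in these runs hold close copies, between which the counting could have divided reads, so single members are less certain than the runs.

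The top-ranked pairs of LPS-responsive enhancers and predicted target genes that the study lists, an excerpt of its pairings, name 17 genes. The genes were taken for their predicted link to these enhancers, which were chosen for activity after LPS, so the direction of the genes is not independent evidence. Of the 17, 14 were tested, 10 rose and 1 fell (median log2 fold change 2.03). Has1, a hyaluronan synthase, had 0 counts in WT UT and 159, 129 and 145 in WT LPS, at least 92.7-fold higher. Itga5, the fibronectin receptor α chain, rose from 104 ± 1.43 to 752 ± 27.99 CPM (log2 fold change 2.85 with SE 0.0566, adjusted p 4.77e-21 in edgeR). Cd83 had 129, 125 and 126 CPM in WT UT and 134, 127 and 124 CPM in WT LPS and Ensa 95.2, 95.003 and 96.5 CPM in WT UT and 115, 103 and 94.5 CPM in WT LPS, and the groups overlapped in both. Ankdd1a fell (log2 fold change -2.31 with SE 0.201, adjusted p 9.62e-10 in edgeR).

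The WT response was compared with that of KO cells through the difference between the WT and the KO response in the same fit. This difference was called for 335 genes (2.16%), for 197 without WT LPS replicate 3 and for 519 without WT LPS replicate 1. Of the 706 genes of the lists and of those named by rank, 32 differed, and 19 of these were called in WT, 10 with the larger and 9 with the smaller change there. Of the 32, 14 were called in every alternative that tested the difference, Il10 and Acod1 among them, and 15 were not called without WT LPS replicate 3. Il10 had log2 fold changes of 4.95 in WT and 3.52 in KO (difference 1.43 with SE 0.111, adjusted p 3.87e-08 in edgeR). Acod1 had 8.49 in WT and 9.70 in KO (difference -1.21 with SE 0.0974, adjusted p 6.24e-08 in edgeR). The differences for Nos2 (-1.08, adjusted p 0.243), Cxcr4 (0.05, adjusted p 0.877) and Il1b (-0.02, adjusted p 0.924) were not called in edgeR. For Tnf the difference was 0.38 (adjusted p 0.00763 in edgeR), short of the fold change minimum. Its level was nevertheless lower in KO cells under both treatments. The means were 15.3 CPM in WT UT and 9.71 CPM in KO UT, and 890 CPM in WT LPS and 432 CPM in KO LPS. KO UT libraries held 6.62% to 7.83% of counts in small structured RNAs, which was above the WT UT range and above every KO LPS library, and without small structured and ribosomal RNA genes 296 differences were called.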

How the data were processed

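The authors aligned the reads of each library to the mouse genome and counted them per gene, and the deposited table holds raw whole-number counts for 48526 genes in 12 libraries. Per the submitters' processing notes the build was GRCm38 and the tools were FastQC 0.11.9, HISAT2 2.1.0, SAMtools 1.17 and featureCounts 2.0.0. Whether reads were counted by strand, how reads with several matches were handled and which annotation release was used are not given in the sources used here. Libraries were total RNA, so noncoding and small structured RNAs take part of the counts.

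All 12 libraries were fitted in R 4.3.3 with edgeR 4.0.16 (TMM scaling, filterByExpr with a minimum count of 10 and a total of 15, a mean per group, quasi-likelihood test). The WT LPS against WT UT contrast and its difference from the KO contrast were tested over all 15523 genes that passed, with Benjamini-Hochberg adjustment. Counts drawn with 200 changed genes were tested for WT LPS against WT UT in 14569 genes, and 200 were recovered with 2 false calls. The draw took WT UT levels for every group and balanced changes in far fewer genes than the 5870 called here. It therefore does not test the calls under a shift in make-up of the size seen between these libraries. Exact 95% counting intervals and floors of 3 counts cover counting error only.

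The labels give a batch number equal to the replicate number, so libraries of 1 number share a batch. Deviations of same-numbered libraries from their group means correlated at -0.0512, -0.000418 and -0.0107.

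Named genes were Tnf, the 10 largest protein-coding increases and decreases by fold (mean CPM of at least 10, no overlap) and by CPM per kilobase, all among called genes, the 5 largest called lncRNA increases and decreases (mean CPM of at least 5), and members of gene lists. Slfn4, Ifi205, Ms4a4c and Cd300a, in the runs of neighbours, were chosen after their values were seen. The members and lists were chosen with earlier results of these data known. Gene positions are from GENCODE vM21 on GRCm38 and promoters from RefSeq. Alternatives covered scaling, filters, DESeq2 1.42.0, the replicate block, the libraries and genes fitted and leaving out each library.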

Additional observations from a re-analysis of the deposited data

Results flagged for a closer look

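The WT response to LPS differed from the KO response, by the test of the difference in the edgeR fit, for 32 genes of the lists or of those named by rank. The values are WT minus KO differences of log2 fold changes. Attractants and cytokines with the larger response in WT were Ccl8 (2.26), Cxcl5 (2.23), Il10 (1.43), Cxcl1 (1.30) and Cxcl2 (1.10). The same held for Gm16685 (2.71), the antimicrobial gene Camp (1.98), Timp1 (1.24) and Bcl2a1b (1.06), and for the decrease of Rrm2 (-1.55). Interferon-inducible genes with the smaller rise in WT were Ifi44 (-1.34), Irf7 (-1.15), Ifit2 (-1.05), Gbp6 (-1.005), Oasl1 (-1.003) and Tgtp2 (-1.003), beside Acod1 (-1.21) and Ass1 (-1.04). Rgs1 fell less in WT (1.14). Genes that were not called in WT were Cx3cr1 (-1.05), Timp3 (-1.05), Col3a1 (-1.85), Col1a2 (-1.38) and Mpo (3.57), the last 3 under 3 CPM in every WT library. Ribosomal protein genes in the same position were Rps29 (1.15), Rps28 (1.11), Rpl36 (1.08), Rps27rt (1.05), Rps16 (1.04), Rpl37 (1.005) and Rps26 (1.000), with the pseudogene-named Rpl36a-ps1 (1.23). None of these 8 ribosomal protein differences was called without WT LPS replicate 3. The summed level of the ribosomal protein genes tested was 28896, 35436 and 40718 CPM in WT LPS replicates 1, 2 and 3, against 28623 to 30169 CPM in WT UT. Ifit2, Gbp6, Oasl1, Tgtp2, Timp3, Bcl2a1b and Mpo also lost their call without WT LPS replicate 3. Cxcl5 lost its call in 6 fits that left out 1 library (KO LPS 3, KO UT 2 or 3, WT LPS 2, WT UT 1 or 3), Ass1 in 3 (KO UT 2 or 3, WT UT 2) and Col3a1 in 2 (WT LPS 2, WT UT 3). The small structured RNA share was 6.62% to 7.83% in KO UT and 3.00% to 3.25% in WT UT, and 296 differences over all genes were called without small structured and ribosomal RNA genes, against 335 with them.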

How the results depend on the processing

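The counts of 2971 genes higher and 2899 lower stayed within 1.5 times of these values under DESeq2 (2861 and 3013), RLE scaling (2855 and 3025), upper-quartile scaling (2523 and 3467), no filter on low counts (3133 and 3157), a mean of at least 1 CPM (2296 and 2234), WT libraries only (2727 and 2943) and without the 10 most-counted genes (2971 and 2895). Leaving out each WT library in turn gave 2924 to 3028 higher and 2855 to 2897 lower. Without a fold change minimum 11386 genes were called, 5899 higher and 5487 lower, and the difference between genotypes was called for 2611, more because the rule is wider. That difference went from 335 genes to 186 among protein-coding genes only, where fewer genes were fitted, and to between 197 and 519 when a WT library was left out, and the cause was not tested. With the replicate block, 2957 genes were higher and 2870 lower, 270 differed between genotypes, and of 406 called list or named genes 1, Siglech, lost its call. Of the 406, 381 kept their call under every setting that tested them, and none changed direction. Upper-quartile scaling, which moved the median of all genes by -0.183 on the log2 scale, ended 15 calls and added 13. Chosen after seeing the data were the fit without small structured and ribosomal RNA genes (2911 higher, 2864 lower, 296 between genotypes) and leaving out each KO library (251 to 335 between genotypes). Depth limits statements on genes with few counts, for which bounds or counting intervals are given. The promoter shares are a description in every setting. With classes over 4-fold, the shares for genes that rose, fell and were not called were 7.56%, 4.74% and 4.32% for kB, 15.4%, 4.54% and 6.97% for ISRE and 0.839%, 3.06% and 3.08% for E2F, so the E2F share of genes that fell was no longer above that of genes not called. With a mean of at least 5 CPM they were 6.18%, 5.02% and 4.35%, 12.2%, 5.16% and 6.77%, and 1.85%, 3.21% and 3.10%.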
